A study of Mus musculus with 4 samples.

Results

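Eicosanoid synthesis was followed in the mouse carotid artery through 10 genes of 31053 listed in 4 single-cell RNA-sequencing libraries, of which 20412 had at least 1 unique molecular identifier (UMI) in the cells analysed. The members were chosen by symbol, with earlier results of these data known. They comprised the cyclooxygenases Ptgs1 and Ptgs2, the terminal prostanoid synthases Ptgis, Ptges, Ptgds, Hpgds and Tbxas1, and the leukotriene genes Alox5, Alox5ap and Ltc4s. Each was described by cell class and by day.

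The vessels came from male C57BL/6 mice, 11 weeks old at surgery, with no transgene or deletion named in the labels. The day 0 library was made from vessels before injury. The libraries of days 3, 7 and 14 were made from left carotid arteries after wire injury, in which a wire passed through the vessel strips the endothelium. Per the study's methods, several arteries were pooled for each injured time point, vessels with a thrombus were discarded and dead cells were removed, so that 1 library stood for each day and no animal could be told from another. With 1 library per day there was no replicate and no test across animals, and every interval below is a 95% interval that covers counting error only. A difference between days cannot be told apart from a difference between libraries.

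Arachidonic acid released from membranes is turned by the cyclooxygenases into prostaglandin H2, which cell-specific synthases convert to prostacyclin, thromboxane A2 and the prostaglandins E2 and D2. Prostacyclin from the vessel wall relaxes smooth muscle and restrains platelets, whereas thromboxane A2 constricts vessels and activates platelets. In leukocytes 5-lipoxygenase, with its partner protein, opens a separate branch that ends in the leukotrienes, which draw in neutrophils and raise vascular permeability.

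Cell barcodes numbered 333 on day 0, 1689 on day 3, 3001 on day 7 and 1138 on day 14, with 2672722 to 27973418 UMIs per library. Of the 6161 barcodes, 217 occurred in exactly 2 libraries, usually as a deep cell in one library and a shallow copy in another. The most frequent pairs were 104 deep day 0 cells (median 17059 UMIs) with a day 3 copy (median 760.5 UMIs), 62 day 7 cells with a day 14 copy, and 48 day 3 cells with a day 0 copy. The shallower copy was left out. With the copies kept, 2 members instead of 1 were called in fibroblast-like cells on day 7 (Ptgs1 and Ptgs2), and the counts of members called in the other fibroblast-like and the monocyte/macrophage-like comparisons stayed as given below. After filtering, 281, 1405, 2690 and 1029 cells remained, with median UMI counts of 7959, 5458, 6328.5 and 10764. Cells were sorted into classes by marker genes, each name standing for resemblance alone, and 704 cells (13.0%) stayed unnamed. Day 0 held 202 fibroblast-like cells but 12 smooth muscle-like, 6 endothelial-like and 4 monocyte/macrophage-like cells and no neutrophil-like or dendritic-like cells. Levels of the scarce classes on day 0 are therefore hardly measured, and immune-like classes were compared with day 3.

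Levels below are UMIs summed over the cells of a class and day and divided by all UMIs of those cells, as CPM, the counts of a gene per 1000000 counts. As the kit reads only the 3′ end of a transcript and levels were not set per length, no level is compared between genes. A gene with at least 20 UMIs over 2 days was called when its CPM, with 10 CPM added, differed by at least 2-fold and the interval of the ratio excluded 1. In these sums fewer expressing cells and less RNA per cell give the same value, and the shares of cells with a UMI are given where they bear on this.

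The promoter windows of the members are shown because Ptgs1 and Ptgs2, which encode the constitutive and the inducible form of the same enzyme, followed unlike patterns below, and because Hpgds was held largely by macrophage-like cells. Windows from 250 bases before to 50 bases after the gene start were taken from RefSeq on GRCm38.p6 for 8 of the 10 members. Ptgis and Alox5ap had no entry. Capitals mark the letters of any of 7 motifs sought on both strands: the TATA box TATAAA, the E box CACGTG, the core TGACG of cyclic AMP response elements, the GC box GGGCGG, the C/EBP-like palindrome TTGCGCAA, the ETS-like sequence GAGGAAGT, and the CCAAT box. The Ptgs1 window lies at chr2:36230176-36230475 on the plus strand, that of Ptgs2 at chr1:150099781-150100080 on the plus strand, and that of Hpgds at chr6:65144681-65144980 on the minus strand, each written from 5′ to 3′ of the gene.
Ptgs1: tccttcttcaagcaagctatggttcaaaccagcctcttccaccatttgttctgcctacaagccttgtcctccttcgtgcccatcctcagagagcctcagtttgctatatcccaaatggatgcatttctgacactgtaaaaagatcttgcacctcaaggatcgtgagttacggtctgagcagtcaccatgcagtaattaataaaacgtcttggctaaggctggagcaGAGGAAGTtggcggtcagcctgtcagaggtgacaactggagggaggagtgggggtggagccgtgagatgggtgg
Ptgs2: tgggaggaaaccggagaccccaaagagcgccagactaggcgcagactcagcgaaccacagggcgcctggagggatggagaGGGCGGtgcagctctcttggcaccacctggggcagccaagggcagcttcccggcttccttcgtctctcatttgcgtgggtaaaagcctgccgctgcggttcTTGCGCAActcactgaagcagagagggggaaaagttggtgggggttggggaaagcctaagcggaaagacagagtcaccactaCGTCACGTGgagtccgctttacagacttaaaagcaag
Hpgds: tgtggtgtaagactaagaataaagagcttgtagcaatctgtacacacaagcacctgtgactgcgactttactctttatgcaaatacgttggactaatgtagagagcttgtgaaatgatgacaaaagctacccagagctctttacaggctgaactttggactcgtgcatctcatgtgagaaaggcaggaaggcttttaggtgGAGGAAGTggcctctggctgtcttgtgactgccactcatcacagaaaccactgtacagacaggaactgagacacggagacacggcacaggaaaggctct

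The Ptgs2 window held GGGCGG, the palindrome TTGCGCAA, and CACGTG overlapping TGACG on the opposite strand. TTGCGCAA, which resembles a site of the C/EBP factors, was in 0.183% of all 32851 windows, CACGTG in 7.15%, TGACG in 20.8% and GGGCGG in 35.7%. The Ptgs1 and Hpgds windows each held GAGGAAGT, a sequence with the core of ETS factor sites such as that of PU.1, found in 3.20% of all windows. Among the other windows, those of Ptges and Alox5 held GGGCGG and that of Tbxas1 held TATAAA, a motif found in 13.6% of all windows. Those of Ptgds and Ltc4s held none of the 7 motifs, and CCAAT, found in 37.4% of all windows, was in no member window. These matches describe the letters alone and show no binding.

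Over the 4 libraries together most members were held mainly by stromal or mainly by leukocyte classes, whereas Ptgs2 was spread over both. Fibroblast-like cells, which made up 17.4% of the cells and 33.5% of all UMIs, held 58.3% of 935 Ptgs1 UMIs, 54.0% of 11118 Ptgis UMIs and 87.5% of 496 Ptges UMIs. Smooth muscle-like cells, with 9.25% of all UMIs, held another 34.4% of the Ptgis UMIs. For Ptgs1 the fibroblast-like share was 97.2%, 48.1%, 41.7% and 69.2% on days 0, 3, 7 and 14, and monocyte/macrophage-like cells held 35.7% of its UMIs on day 7. Per UMI, pooled Ptgs1 was lower in fibroblast-like cells (27.1 CPM) than in neutrophil-like cells (69.0 CPM), which held 72 of its UMIs. Monocyte/macrophage-like cells, 30.6% of the cells and 25.7% of all UMIs, held 87.4% of 1115 Hpgds UMIs, 73.6% of 1475 Tbxas1 UMIs, 74.2% of 1353 Ltc4s UMIs, 59.1% of 17885 Alox5ap UMIs and 56.8% of 419 Alox5 UMIs. Over the 4 libraries together, which differ in size, no class held most of the Ptgs2 UMIs. Its 10723 UMIs were held by neutrophil-like (27.6%), monocyte/macrophage-like (27.4%), smooth muscle-like (16.3%) and fibroblast-like cells (15.3%). Day by day the largest holder differed, with fibroblast-like cells on day 0 (all 86 UMIs), neutrophil-like cells on day 3 (40.4%), monocyte/macrophage-like cells on day 7 (46.0%) and fibroblast-like cells on day 14 (44.3%). Ptgds, which encodes the lipocalin-type prostaglandin D synthase, was nearly undetected, with 12 UMIs in all, in fibroblast-like (8 UMIs), smooth muscle-like (3 UMIs) and endothelial-like cells (1 UMI).

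**Figure D1:**
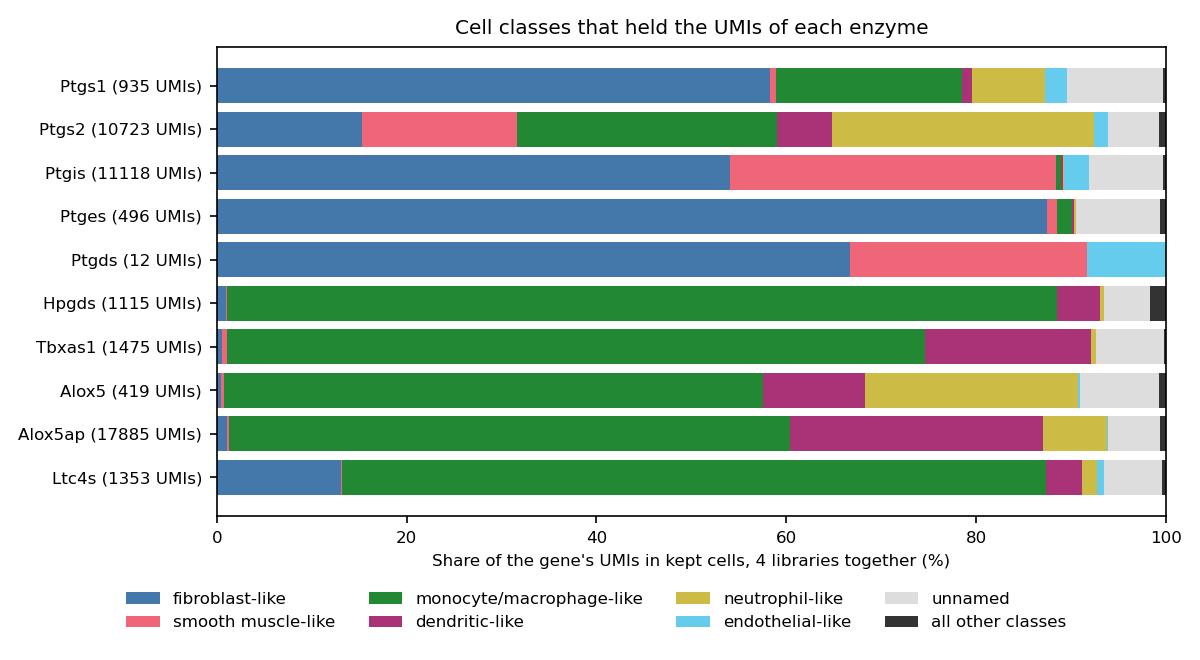
Share of each member's UMIs over the 4 libraries (horizontal axis, percent) that came from each cell class (colours), with the member on the vertical axis. Ptges (87.5%, fibroblast-like) and Hpgds (87.4%, monocyte/macrophage-like) came largely from 1 class, whereas no class held over 27.6% of the Ptgs2 UMIs.

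The first question was how the cyclooxygenases differed after injury. Ptgs1 was lower in fibroblast-like cells after injury. Ptgs2 was called higher than on day 0 in fibroblast-like and smooth muscle-like cells on day 3. On day 0 it was found in no class but fibroblast-like cells. Ptgs1 in fibroblast-like cells measured 62.6 CPM on day 0 (interval 52.5 to 74.0), 41.5 on day 3, 20.1 on day 7 and 15.2 on day 14 (12.8 to 18.0). The level was thus highest before injury and lowest on day 14, and the intervals of these days were apart. Against day 0 the ratio was 0.321 on day 7 (0.245 to 0.419) and 0.244 on day 14 (0.191 to 0.311). These correspond to log2 ratios, with 10 CPM added, of -1.27 and -1.52, and both were called. The day 3 ratio of 0.663 was not called. When each cell counted equally, the day 7 log2 ratio was -0.79, below the threshold.

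On days 0 and 14 most Ptgs1 of the class came from 1 small cluster led by Igfbp5 and Sema3c, which also carried Pi16 and Cd248, genes known from adventitial fibroblasts. The eicosanoid genes had been left out of the clustering. On day 0 this cluster held 25 of the 202 fibroblast-like cells and 124 of their 137 Ptgs1 UMIs (90.5%), at 306 CPM (254 to 364). On day 14 it held 46 of 472 cells and 65.9% of the Ptgs1 UMIs, at 101 CPM (81.2 to 124). No day 3 cell and 6 day 7 cells fell into it. The level was therefore lower on day 14 within the cluster too. In the most numerous fibroblast-like cluster of days 0, 3 and 7, led by Rbp4 and Fmo2, Ptgs1 measured 7.29, 14.8, 12.3 and 9.20 CPM on days 0, 3, 7 and 14, with overlapping intervals. In the cluster led by C1qtnf3 and Angptl1, which made up 52.3% of the class on day 14 and had no cell on days 0 and 3, it measured 3.88 CPM on day 14. On day 3, 143 of the 175 Ptgs1 UMIs came from a cluster of 43 very deep cells led by Saa3, an acute-phase gene, and Prg4, in which the level was 52.4 CPM. Without that cluster the day 3 log2 ratio of Ptgs1 was -1.20.

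Outside the fibroblasts, Ptgs1 measured 78.8 CPM in neutrophil-like cells on day 3 (59.0 to 103) and 51.2 on day 7 (30.9 to 80.0), so that the days overlapped. Monocyte/macrophage-like cells gave 11.4, 9.21 and 28.1 CPM on days 3, 7 and 14, and the day 14 interval (20.3 to 38.0) lay above those of the earlier days. The day 14 difference was not called, at a log2 ratio of 0.83 against day 3, but it was called at 1.11 with averaged single-cell CPM and at 1.23 with 1 CPM added. Smooth muscle-like cells had 0 to 3 Ptgs1 UMIs on each day. In endothelial-like cells 11 UMIs of day 14 came from 3 cells, too few to read.

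Ptgs2 in fibroblast-like cells measured 39.3 CPM on day 0 (31.4 to 48.5), 174 on day 3 (161 to 187), 87.1 on day 7 (79.0 to 95.8) and 45.2 on day 14 (40.8 to 49.8). Day 3 stood above the other days, and day 14 overlapped day 0. The day 3 ratio was 4.42 (3.53 to 5.59), a log2 ratio of 1.90, and was called, whereas days 7 and 14 were not, at log2 ratios of 0.98 and 0.16. The day 7 value lay so near the threshold that it was called in 7 of the alternative settings given at the end.

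The day 3 difference rested on cells of particular clusters. The Saa3-led cluster gave 520 of the 732 Ptgs2 UMIs (71.0%) at 190 CPM, and a single cell of a cycling cluster, with 202235 UMIs, gave another 160. That cluster was seen on days 3 and 7 only, and on day 7 it again stood at 212 CPM. In the Rbp4-led cluster, present on every day, Ptgs2 measured 46.5, 40.5, 56.4 and 60.9 CPM on days 0, 3, 7 and 14. Single cells weighed on these values too. On day 0, 1 cell of this cluster gave 38 of the 86 Ptgs2 UMIs of the class. On day 7, 1 cell gave 51 of 425, and on day 14, 1 cell gave 75 of 400. The log2 ratio of day 3 against day 0 was 1.63 without the Saa3-led cluster and 0.03 without it and the cells of the cycling clusters. Without the top 5 cells of each group, which on day 0 were all of the Rbp4-led cluster, the ratio was 1.97. Whether the Saa3-led cells are single cells was not tested, and their median of 55775 UMIs was the highest of the 28 clusters.

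**Figure D2:**
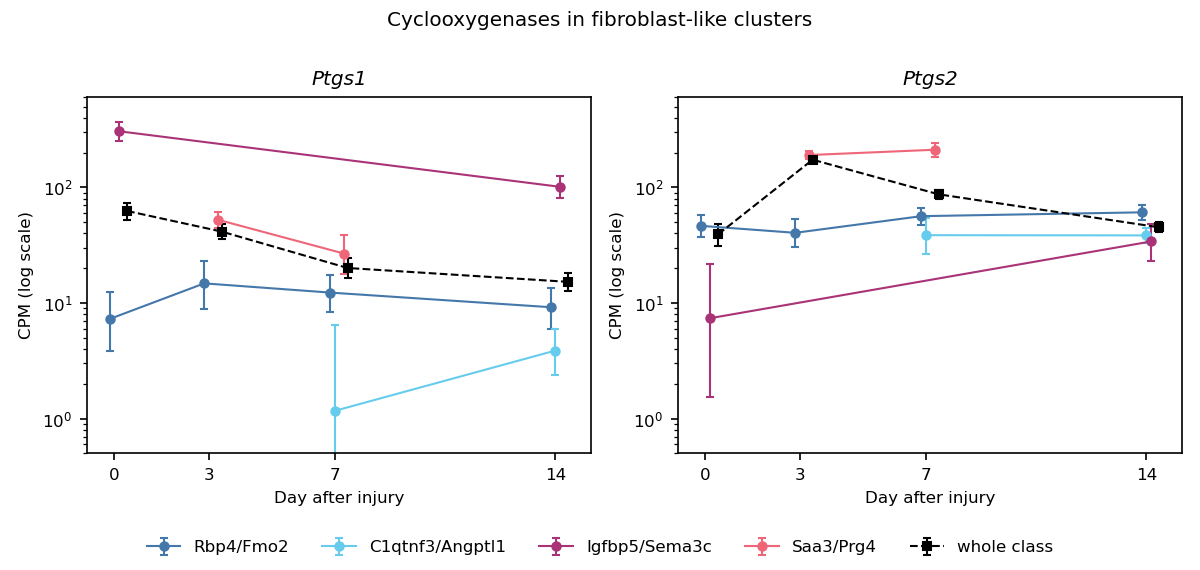
Ptgs1 and Ptgs2 in the fibroblast-like cells and their clusters by day after injury (horizontal axis), in CPM on a log scale (vertical axis), with exact 95% Poisson intervals and only groups of at least 20 cells drawn. Ptgs1 is highest in the Igfbp5-led cluster (306 CPM on day 0 and 101 on day 14), and Ptgs2 in the Saa3-led cluster (190 CPM on day 3 and 212 on day 7).

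Of the 10 members, 6 passed the minimum of 20 UMIs in fibroblast-like cells. On day 3 against day 0, 2 of the 6 were called higher, Ptgs2 and Ltc4s, beside 7.47% of all 10666 genes tested. On day 7, 1 of 6 was called, Ptgs1, beside 7.12% of all genes, and on day 14 again 1 of 6, Ptgs1, beside 3.97%. The medians of the members' log2 ratios were 0.43, 0.23 and -0.17 on these days, against -0.08, -0.03 and -0.02 over all genes tested.

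Smooth muscle-like cells showed the steepest difference in Ptgs2. No Ptgs2 UMI was found in the 12 day 0 cells, for which 3 counts would amount to 30.1 CPM. The class measured 540 CPM on day 3 (512 to 568), 113 on day 7 (96.2 to 132) and 84.9 on day 14 (69.7 to 102). Day 3 was thus at least 17.9-fold higher than that day 0 floor, the interval of the ratio to day 0 began at 14.5, and day 3 stood above days 7 and 14, which overlapped each other. Against day 3 the ratio was 0.209 on day 7 (0.177 to 0.246) and 0.157 on day 14 (0.128 to 0.191), log2 ratios of -2.16 and -2.53.

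Few cells carried most of the day 3 transcripts. Of the 99 smooth muscle-like cells, 40 had a Ptgs2 UMI, 1 cell held 533 of the 1477 UMIs and the top 5 cells held 65.9%. Without the top 5 cells of each group the log2 ratios against day 3 were -2.36 and -2.47, close to those with them. Between day 3 and day 0 the log2 ratio, which depends on the prior count because day 0 was at 0, was 4.46 without those cells and 5.78 with them. Nearly all the day 3 UMIs (1475) came from the cluster led by Myh11 and Tagln, contractile genes of smooth muscle, whose Ptgs2 level was 555, 114 and 83.6 CPM on days 3, 7 and 14. In order of Ptgs2, the top 5 day 3 cells held 378, 108, 297, 2343 and 1110 UMIs of the smooth muscle markers. Their fibroblast markers came to 122, 27, 327, 732 and 217 UMIs. These cells had 97488, 19382, 50754, 122628 and 48365 UMIs in all. Whether the cells richest in Ptgs2 were contractile was not tested. The 10 neutrophil markers summed to 12.1 CPM in the class on day 3, with Retnlg and Ly6g at 0, against 49109 CPM in neutrophil-like cells. The 8 cell cycle markers summed to 387, 548 and 2.34 CPM in the class on days 3, 7 and 14, and their part in the Ptgs2 difference was not tested. Median mitochondrial shares of the class were 5.4% on day 3, 10.3% on day 7 and 5.8% on day 14, and their part in the difference was not tested. Leaving cells over 10% out of the class as named kept both calls. Leaving them out before clustering, which also changed which cells bore the name, gave log2 ratios against day 3 of 0.98 on day 7 and -0.92 on day 14, neither called. At Leiden resolution 2 the day 7 ratio was -0.90 and was not called.

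In smooth muscle-like cells 2 members passed the minimum on day 3 against day 0 and 1 was called (Ptgs2), beside 10.9% of all genes. On day 7 against day 3, 1 of 3 was called, beside 1.95% of all genes, and on day 14 again 1 of 3, beside 5.25%, each time Ptgs2 lower.

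Ptgs2 was densest in neutrophil-like cells, where it measured 3024 CPM on day 3 (2894 to 3158) and 2492 on day 7 (2334 to 2658). A Ptgs2 UMI was found in 72.1% of the day 3 and 75.0% of the day 7 cells, at median depths of 2859 and 3040 UMIs. Of the T cell-like cells of day 7, which should lack the transcript, 5.68% had a UMI at a median of 5600 UMIs. With each cell thinned to 1000 UMIs the shares were 63.7% and 62.0% in neutrophil-like cells against 1.04% in those T cell-like cells. Cells with under 1000 UMIs were left out of the thinned shares, here and below. No neutrophil-like cell was found on days 0 and 14. The ratio of day 7 to day 3 was 0.824 (0.762 to 0.891) and was not called. None of the 5 members tested in this class was called, beside 6.4% of all genes.

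In monocyte/macrophage-like cells Ptgs2 measured 110 CPM on day 3 (101 to 120), 237 on day 7 (227 to 247) and 165 on day 14 (145 to 187). The 3 intervals were apart, with the highest level on day 7. The ratio of day 7 to day 3 was 2.16 (1.96 to 2.38), a log2 ratio of 1.04, and was called, and the day 14 log2 ratio of 0.55 was not. The call stood close to the threshold, at log2 ratios of 0.89 when each cell counted equally and 0.90 when each library was clustered alone. Without the top 5 cells of each group the log2 ratio was 1.55.

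The clusters of this class took unlike shares of it on the 3 days. A further cluster, not described here on its own, made up 55.6%, 4.80% and 1.03% of the class on days 3, 7 and 14. Its part in the Ptgs2 ratio was not tested. The cluster led by Plac8 and Osm, with Il1b and Chil3 among its leading genes, made up 10.0%, 40.0% and 8.25% of the class on days 3, 7 and 14 and carried Ptgs2 at 502, 430 and 487 CPM. Within it the level was thus nearly even, but on day 3 a single cell of 3012 UMIs gave 66 Ptgs2 UMIs. That cell held 0 UMIs of the monocyte/macrophage markers and 21 of the neutrophil markers. The cluster led by Ms4a7 and C1qa, 11.2%, 20.5% and 48.5% of the class, had 98.2, 152 and 149 CPM. The cluster led by Acp5 and Ciita, 18.5%, 29.5% and 38.7%, had 94.7, 88.1 and 53.6 CPM. The summed neutrophil markers were 144, 272 and 56.8 CPM in the class, with Ly6g at 0 on each day and Csf3r or Mmp9 as the highest. Their part in the Ptgs2 difference was not tested.

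Dendritic-like cells held Ptgs2 at 68.2 CPM on day 3, 77.2 on day 7 and 299 on day 14. The day 14 value came from 31 cells, of which 5 gave 98.9% of the 91 UMIs, and without the top 5 cells of each group the log2 ratio of day 14 to day 3 was -1.31 instead of 1.98. Endothelial-like cells gave 109 CPM on day 3 (68.6 to 166) and 180 on day 7 (151 to 213) from 22 and 135 UMIs, with overlapping intervals. On day 3, 1 of these cells gave 12 of the 22 UMIs and also held 169 UMIs of the smooth muscle markers. On day 7, 1 cell gave 49 of the 135 UMIs, and another, with 1001 UMIs in all, gave 20. T cell-like cells had 62.5 CPM on day 14, of which 1 cell gave 37 of 38 UMIs.

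**Figure D3:**
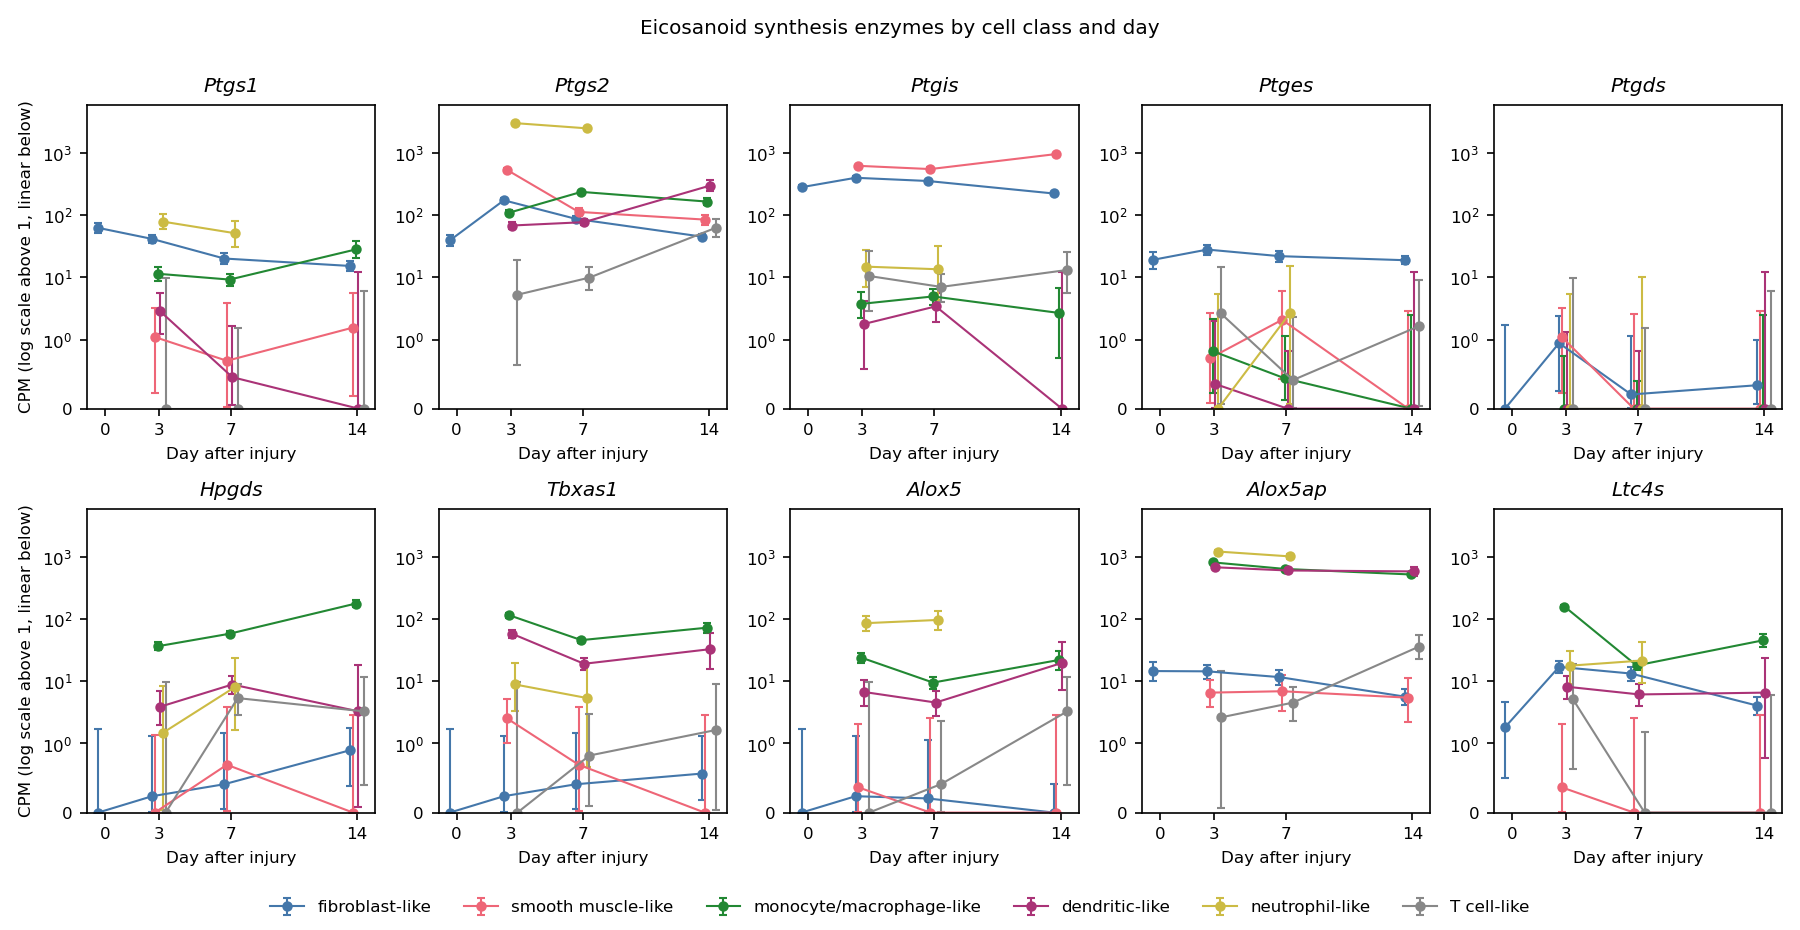
Level of each member in CPM (vertical axis, log scale above 1 and linear below) by day after injury (horizontal axis), with 1 line per class, exact 95% Poisson intervals and only groups of at least 20 cells drawn. Ptgs2 is highest in neutrophil-like cells (3024 and 2492 CPM), Ptgis in smooth muscle-like cells (551 to 963 CPM after injury), and Hpgds in monocyte/macrophage-like cells.

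The second question was which cells carried the terminal prostanoid synthases, and none of the stromal ones was called on any day. Ptgis, the prostacyclin synthase, measured 864 CPM in the 12 smooth muscle-like cells of day 0 (691 to 1067), 622 on day 3 (593 to 652), 551 on day 7 (514 to 591) and 963 on day 14 (910 to 1018). Day 14 lay above days 3 and 7, at a ratio of 1.55 to day 3 (1.44 to 1.67), and overlapped day 0. Fibroblast-like cells gave 282, 399, 355 and 223 CPM on days 0, 3, 7 and 14. In this class the highest level was on day 3, at 1.42 times day 0 (1.29 to 1.56), and the lowest on day 14, at 0.792 (0.723 to 0.868). Endothelial-like cells gave 443 CPM on day 3 (356 to 545) and 251 on day 7 (216 to 290). Of the 89 day 3 UMIs, 41 and 30 came from 2 of the 40 endothelial-like cells, 1 of which also held 169 UMIs of the smooth muscle markers, whose part in this level was not tested.

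In fibroblast-like cells Ptgis was spread over most of the cells. A UMI was found in 74.8%, 91.0%, 87.8% and 78.0% of the fibroblast-like cells on days 0, 3, 7 and 14, at median depths of 10204, 38613.5, 28718.5 and 19343 UMIs. Thinned to 1000 UMIs the shares were 19.7%, 29.0%, 25.0% and 16.0%, in the order of the CPM. In T cell-like cells of day 7 the share was 4.13% and, thinned, 0.781%. The immune-like classes with at least 20 cells measured at most 14.9 CPM on any day.

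Ptges, the microsomal prostaglandin E synthase usually paired with Ptgs2, measured 19.2, 28.0, 21.9 and 18.9 CPM in fibroblast-like cells on days 0, 3, 7 and 14, from 42, 118, 107 and 167 UMIs. The days lay within 1.46-fold of day 0. The Saa3-led cluster, in which Ptgs2 was high, gave 33.0 CPM on day 3 and 31.5 on day 7, and the Rbp4-led cluster 18.5 to 21.8 CPM over the 4 days. Smooth muscle-like cells had 0 to 3 and monocyte/macrophage-like cells 0 to 4 Ptges UMIs on each day, so that these classes held Ptgs2 with hardly any Ptges detected.

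Hpgds, the haematopoietic prostaglandin D synthase, was higher in macrophage-like cells on day 14. It measured 36.6 CPM on day 3 (31.4 to 42.4), 58.2 on day 7 (53.4 to 63.4) and 178 on day 14 (157 to 201). The 3 intervals were apart and in the order of the days. The ratio of day 14 to day 3 was 4.86 (4.00 to 5.92), a log2 ratio of 2.01, and was called, and that of day 7 was 1.59 (1.34 to 1.90) and was not. It also stood at 2.06 on the log2 scale without the top 5 cells of each group.

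The order held within the cluster that expressed it most. In the Ms4a7- and C1qa-led cluster, whose leading genes include Apoe and Trem2, Hpgds measured 82.9, 141 and 230 CPM on days 3, 7 and 14, and this cluster gave 36.9%, 74.4% and 86.5% of the class's Hpgds UMIs as its share of the cells went from 11.2% to 48.5%. The Plac8-led cluster, rich in Ptgs2, gave 7.13 CPM on day 3 and 8.03 on day 7. Over all days it gave 9.61 CPM, and it had only 16 cells on day 14. A UMI was found in 16.2%, 20.8% and 49.0% of the class, at median depths of 7279, 8890 and 6657 UMIs, and in 2.78%, 4.17% and 14.6% after thinning, against 1.81% and, thinned, 0.521% of the T cell-like cells of day 7. The mast cell and basophil markers, 10 genes of cells known for Hpgds, were all at 0 in the class on every day.

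Tbxas1, the thromboxane synthase, showed the opposite order between days 3 and 7. In monocyte/macrophage-like cells it measured 115 CPM on day 3 (106 to 125), 45.9 on day 7 (41.7 to 50.6) and 72.9 on day 14 (59.9 to 87.9). The ratio of day 7 to day 3 was 0.398 (0.350 to 0.453), a log2 ratio of -1.16, and was called, while day 14 was not, at -0.60. The difference was also seen within the C1qa-led cluster, at 120 and 77.9 CPM on days 3 and 7, while the Plac8-led cluster stood at 21.4 and 22.9.

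Dendritic-like cells followed the same order, at 58.2 CPM on day 3 (49.7 to 67.9) and 19.1 on day 7 (15.3 to 23.7), with a log2 ratio of -1.23. This was called, but it was -0.98 with the shared barcodes kept and -0.52 at Leiden resolution 2, not called in either. The 3 day 3 cells with the most Tbxas1 UMIs (10, 8 and 8) also held 217, 284 and 315 UMIs of the monocyte/macrophage markers, whose part in the difference was not tested. On day 14 they gave 32.9 CPM from 10 UMIs. In this class 1 of 7 members was called on day 7 against day 3 (Tbxas1), beside 1.74% of all genes, and 1 of 5 on day 14 against day 3 (Ptgs2, resting on 5 cells), beside 7.41%.

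Platelets are the known source of thromboxane in blood. The 8 platelet markers summed to 94.0, 24.1 and 2.68 CPM in the monocyte/macrophage-like cells of days 3, 7 and 14, of which 90.2, 19.2 and 2.01 CPM were Ppbp. Gp1bb was at 0 on each of these days. Without Ppbp the list came to 3.74, 4.93 and 0.669 CPM. Ppbp was also among the leading genes of some monocyte/macrophage-like cells. The 5 day 3 cells of the class with the most Tbxas1 UMIs held 0 UMIs of the 8 markers. The part of platelets in the Tbxas1 values was not tested.

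The third question was which leukocytes carried the leukotriene genes. Alox5ap, which encodes the activating partner of 5-lipoxygenase, was broad among myeloid-like cells. It measured 1220 and 1020 CPM in neutrophil-like cells on days 3 and 7, 818, 641 and 522 CPM in monocyte/macrophage-like cells on days 3, 7 and 14, and 681, 606 and 585 CPM in dendritic-like cells. In the macrophage-like cells the intervals of the 3 days were apart and day 14 stood at 0.639 times day 3 (0.591 to 0.690), short of the threshold, whereas days 7 and 14 of the dendritic-like cells overlapped.

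Within the dendritic-like class the gene separated the clusters. The cluster led by Cd209a and Clec10a, markers of conventional type 2 cells, gave 769 CPM on day 3 (734 to 805) and 693 on day 7 (666 to 720). The cluster led by Ccr7 and Ccl22, markers of migratory cells, gave 18.3 CPM from 6 UMIs and 18.7 CPM from 10 UMIs on these days. The 10 plasmacytoid dendritic-like cells of day 7 had 60 UMIs, or 545 CPM. Outside the myeloid classes it was low. Fibroblast-like cells gave 14.6, 14.5, 11.7 and 5.65 CPM on days 0, 3, 7 and 14, and T cell-like cells 2.63 and 4.54 CPM on days 3 and 7. On day 14 the T cell-like cells gave 36.2 CPM, with all 22 UMIs in 3 cells.

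Alox5, the 5-lipoxygenase itself, measured 86.2 CPM in neutrophil-like cells on day 3 (65.4 to 111) and 97.1 on day 7 (68.0 to 134), with overlapping intervals. Monocyte/macrophage-like cells gave 24.1, 9.54 and 22.1 CPM on days 3, 7 and 14 from 116, 87 and 33 UMIs. Day 7 lay below both other days there, at a ratio of 0.396 to day 3 (0.296 to 0.527), but its log2 ratio with 10 CPM added was -0.80 and was not called. Fibroblast-like and smooth muscle-like cells had 3 Alox5 UMIs in all, 2 and 1.

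Ltc4s, which joins leukotriene A4 to glutathione, showed the largest difference of any member in the macrophage-like cells. It measured 159 CPM on day 3 (148 to 171), 18.0 on day 7 (15.3 to 21.0) and 45.5 on day 14 (35.3 to 57.7). Day 3 stood far above both later days, whose intervals were also apart. Against day 3 the ratio was 0.113 on day 7 (0.0947 to 0.134) and 0.285 on day 14 (0.219 to 0.366), log2 ratios of -2.60 and -1.61, and both were called.

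Within the C1qa-led cluster Ltc4s did not show the difference between days 3 and 7, at 39.5, 37.2 and 64.1 CPM on days 3, 7 and 14, and this cluster gave 94.1% of the day 14 UMIs. A UMI was found in 25.8%, 10.9% and 19.6% of the class on days 3, 7 and 14, and in 8.93%, 1.75% and 4.27% after thinning. No T cell-like cell of day 7 had one (0 of 387 cells, for which 3 cells, the floor used throughout for a count of 0, would be a share of 0.775%). Neutrophil-like cells gave 17.8 and 21.6 CPM on days 3 and 7, from 12 and 8 UMIs.

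In fibroblast-like cells Ltc4s was called higher on day 3, at 17.1 CPM against 1.83 on day 0, a log2 ratio of 1.19 from 72 and 4 UMIs. Of these 72 UMIs 86.1% came from 5 cells, and the log2 ratio was 0.34 without the top 5 cells of each group and 0.18 without the Saa3-led cluster. The mast cell and basophil markers were all at 0 in this class on days 0, 3 and 7.

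**Figure D4:**
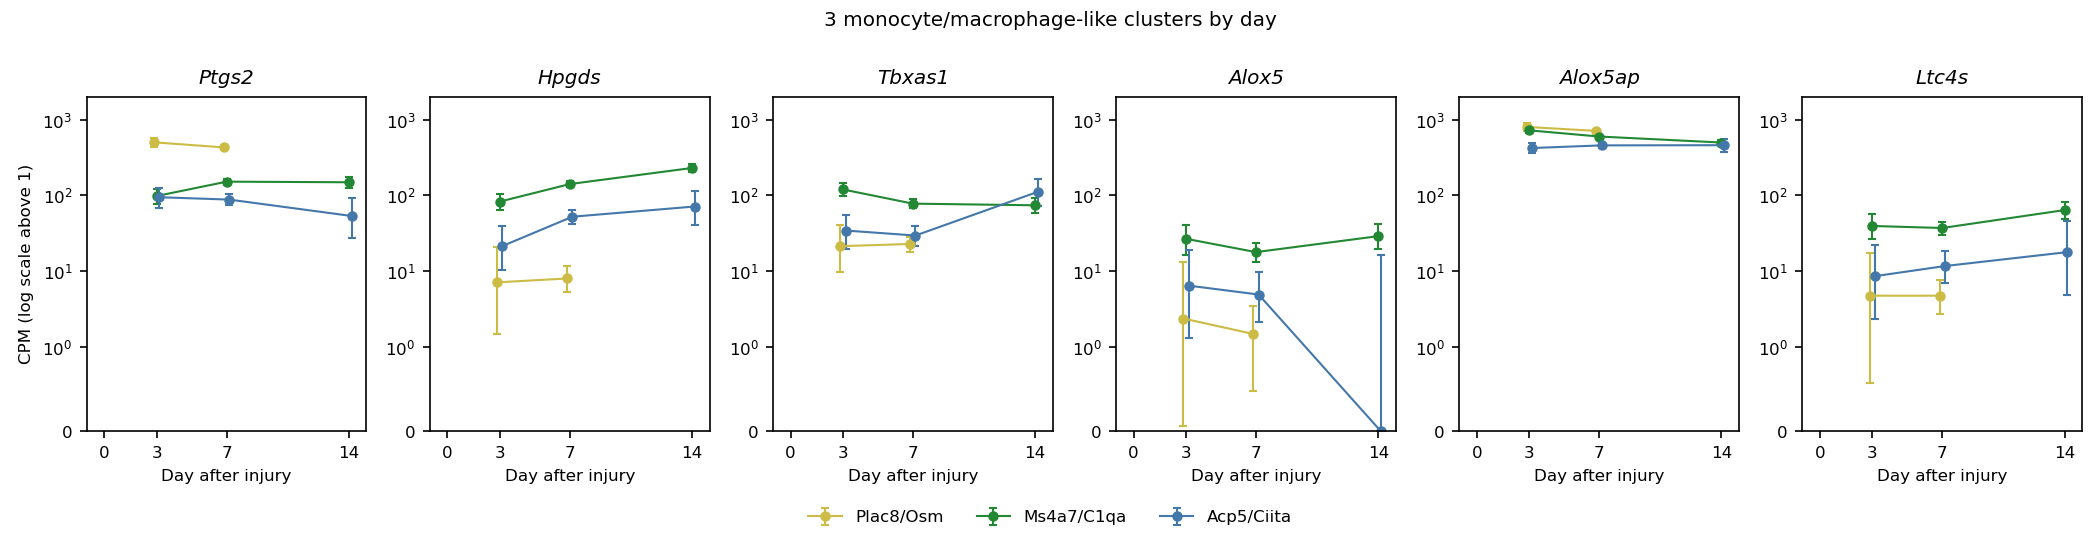
Ptgs2, Hpgds, Tbxas1, Alox5, Alox5ap and Ltc4s in 3 clusters of monocyte/macrophage-like cells by day after injury (horizontal axis), in CPM (vertical axis, log scale above 1 and linear below), with exact 95% Poisson intervals and only groups of at least 20 cells drawn. Of these clusters, Ptgs2 is highest in the Plac8-led one (502 and 430 CPM on days 3 and 7) and Hpgds in the C1qa-led one (82.9, 141 and 230 CPM on days 3, 7 and 14).

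Taking the macrophage-like class as a whole, 8 of the 10 members passed the minimum. On day 7 against day 3, 3 of the 8 were called, Ptgs2 higher and Tbxas1 and Ltc4s lower, beside 2.05% of all 11125 genes tested. On day 14 against day 3, 2 of the 8 were called, Hpgds higher and Ltc4s lower, beside 4.74% of all genes. The medians of their log2 ratios were -0.25 and -0.10, against -0.06 and -0.09 over all genes tested. Erythroid markers summed to 693, 2290 and 10.7 CPM in the class on days 3, 7 and 14. The source of these transcripts and their part in the values of the members were not tested.

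The rest of the pathway was read from 5 further lists. Against day 0, the share of all genes called in fibroblast-like cells was 7.47% on day 3, 7.12% on day 7 and 3.97% on day 14. In fibroblast-like cells none of the 6 tested genes that release arachidonate was called on day 3, and of the 9 tested genes of other synthesis steps only Mgst3, a microsomal glutathione transferase, was, at 92.0 CPM on day 3 against 26.0 on day 0. Of 8 tested genes of transport and breakdown, 2 were called on day 3. Slco2a1, the prostaglandin transporter, went from 0 to 86 UMIs, at least 14.9-fold higher than the day 0 floor of 3 counts. Dpep1, a dipeptidase that trims leukotriene D4, was lower at 386, 112, 39.6 and 110 CPM on days 0, 3, 7 and 14.

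Among the receptors, Ptgfr, that of prostaglandin F2α, was lower on all 3 later days at 111, 17.8, 11.1 and 13.6 CPM, with log2 ratios of -2.12, -2.52 and -2.36, and it was the 1 called of 3, 4 and 4 prostanoid receptors tested. On days 7 and 14 the other genes called in fibroblast-like cells from these lists came to 1 each, Dpep1. The 1 leukotriene or lipoxin receptor tested was called on no day.

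In monocyte/macrophage-like cells Hpgd, which inactivates prostaglandins, measured 20.8, 76.5 and 140 CPM on days 3, 7 and 14 and was called higher on both later days, at log2 ratios of 1.49 and 2.28. It was the 1 called of 8 transport and breakdown genes tested each time, beside 2.05% of all genes on day 7 and 4.74% on day 14. Of 4 leukotriene and lipoxin receptors tested, beside the same shares of all genes, 1 was called lower on day 7 and 3 on day 14. These were Fpr2 (34.1, 10.2 and 4.68 CPM), Ltb4r1, the high-affinity leukotriene B4 receptor (146, 79.7 and 32.1 CPM), and Cmklr1 (74.8, 50.2 and 26.1 CPM). Pla2g16, a phospholipase, was the 1 called of 6 release genes on day 14, at 30.1 against 5.82 CPM on day 3. None of the 7 other synthesis genes and none of the 3 prostanoid receptors tested was called on either day.

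The other classes also had calls in these lists. Of all genes, 10.9% were called in smooth muscle-like cells on day 3 against day 0. Against day 3 the shares there were 1.95% on day 7 and 5.25% on day 14. Also against day 3, they were 6.4% in neutrophil-like cells on day 7, and 1.74% and 7.41% in dendritic-like cells on days 7 and 14. Smooth muscle-like cells of day 3 against the 12 cells of day 0 had 3 calls in these lists. Anxa1, annexin A1, was higher (495 against 191 CPM), Slco2a1 went from 0 to 183 UMIs, at least 2.22-fold higher than the day 0 floor of 3 counts, and Ptgr2, a prostaglandin reductase, was lower (15.3 against 70.3 CPM, the latter from 7 UMIs). On day 14 Slco2a1 was called lower than on day 3, at 4.67 against 66.9 CPM, and on day 7 none of the listed genes tested was called. In neutrophil-like cells Fpr2 was the 1 call on day 7, at 53.9 against 177 CPM on day 3. In dendritic-like cells Pla2g7, a phospholipase (5.92 against 24.9 CPM), and Ltb4r1 (65.4 against 181 CPM) were called lower on day 7 and Hpgd higher (33.2 against 9.23 CPM). These 3 were called in the same directions on day 14, when the class had 31 cells, with Pla2g16 higher and Lta4h, the leukotriene A4 hydrolase, Ggt5 and Cyp4f18 lower, each of these 4 from at most 13 UMIs on that day.

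The genes whose levels over 24 groups of class and day most resembled a member were sought among 11592 genes. The groups share 4 libraries, so Pearson's r is a description. For Hpgds they were Gdf3 (r = 0.98), Ms4a14 (0.97) and Ms4a7 (0.96), for Tbxas1 Dpep2, Mrc1 and Clec4a1 (each 0.98), and for Alox5ap Cd300a (0.99), Pirb (0.99) and Csf2ra (0.98). Ptgis was closest to Rbfox2, Parva (each 0.98) and Hspg2 (0.97). Ptgs2 and Ltc4s had less close matches, with Ier3 (0.90), Arf2 (0.87) and Rab7 (0.87) for Ptgs2 and Aldh3b1 (0.81), Folr2 (0.80) and Dhx58 (0.80) for Ltc4s.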

How the data were processed

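The 4 libraries of mouse carotid artery stood for 1 each of days 0, 3, 7 and 14. The files deposited are matrices of raw UMI counts without normalization. Their headers name Cell Ranger 3.0.2, whereas the paper's methods name another version. The genome build is not given in the sources used here in a form that fits mouse, so no coordinates were taken from the files. Classes were rebuilt from markers because the authors' own annotation of cells was not used here, so the names may differ from theirs.

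Barcodes with under 200 genes or over 20% mitochondrial UMIs were removed, 3, 161, 252 and 37 on days 0, 3, 7 and 14. Doublets were scored with Scrublet in scanpy 1.11.5, whose own threshold marked too few or uneven numbers, and the highest scores were removed at a rate of 0.8% per 1000 barcodes (1, 23, 72 and 10). Shallower copies of shared barcodes were removed (48, 104, 3 and 62). Counts were scaled to 10000 per cell and logged. Clustering used 2000 variable genes without the pathway genes, 30 components, 15 neighbours and Leiden resolution 1 (leidenalg 0.10.2), giving 28 clusters. A name needed at least 3 markers. Cells of the cycling clusters took the class of 60% of their neighbours, which named 52 of 154. A further cluster of monocyte/macrophage-like cells, 55.6%, 4.80% and 1.03% of the class on days 3, 7 and 14, is not reported here on its own. The class values include it, so that the day 3 reference of each macrophage ratio rests mostly on cells outside the 3 clusters described.

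Sums of counts per class and day gave CPM with exact Poisson intervals, ratios with exact conditional binomial intervals, and shares with exact binomial intervals (scipy 1.17.1). The code for the calls was tested on simulated counts, from which no value is given. All 10 members were named, as were called genes of 5 other pathway lists (up to 6 per list and comparison) and, for members reaching 100 CPM, the 3 genes with the highest correlation. The members and lists were chosen with earlier results of these data known. Alternatives changed the scaling, clustering, filters, doublet removal, shared barcodes and added CPM.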

Additional observations from a re-analysis of the deposited data

Results flagged for a closer look

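The Ptgs2 ratios had opposite signs in different classes of the same libraries. On day 7 against day 3 its log2 ratio was 1.04 in monocyte/macrophage-like cells and -2.16 in smooth muscle-like cells. The first was below the threshold of 1 in 3 settings (0.89 with averaged single-cell CPM, 0.90 with each library clustered on its own, 0.99 without cells over 10% mitochondrial UMIs in the same classes). The second turned to 0.98 when cells over 10% mitochondrial UMIs were left out before clustering and was -0.90 at Leiden resolution 2, neither called. On day 14 against day 3 it was -2.53 in smooth muscle-like cells and 1.98 in dendritic-like cells. The former was -0.92 and not called when cells over 10% mitochondrial UMIs were left out before clustering, and the latter rested on 5 cells and was -1.31 without the top 5 cells of each group. With 1 library per day these differences between classes were not tested.

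A signal also stood outside the named classes. An unnamed cluster of 342 shallow barcodes (median 748.5 UMIs), 339 of them from day 7, was led by Snhg9 and Gm47283. It carried Ptgs2 at 286 CPM, Ptgis at 134 CPM and Alox5ap at 257 CPM, transcripts that belonged to different named classes.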

How the results depend on the processing

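In fibroblast-like cells the number of members called on day 3 against day 0 was 2. It was 1 (Ptgs2) when the CPM of single cells were averaged, with each library clustered on its own and with at most 10% mitochondrial UMIs. It was 1 (Ptgs1) without the Saa3-led cluster and the cycling clusters. Without the Saa3-led cluster alone it was 2, but these were Ptgs1 and Ptgs2. On day 7 it was 1, against 0 when single-cell CPM were averaged. It was 2 with libraries clustered on their own, at Leiden resolution 0.5, at most 10% mitochondrial UMIs, in the same classes without cells over 10%, and with shared barcodes kept. It was 3 (Ptgs1, Ptgs2 and Ltc4s) without mitochondrial and ribosomal protein genes, under median-of-ratios scaling and with 1 CPM added. On day 14 it was 1, and 2 with 1 CPM added. In monocyte/macrophage-like cells it stayed between 2 and 4 on days 7 and 14 in the settings run.

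Of the called ratios, 2 changed sign, and signs also turned among ratios not called, such as Alox5 in dendritic-like cells, day 14 against day 3, from 0.83 to -0.15 without the top 5 cells. Ptgs2 in smooth muscle-like cells, day 7 against day 3, was 0.98 when cells over 10% mitochondrial UMIs were left out before clustering, a setting that also changed which cells bore the name. It was -0.90 at Leiden resolution 2, and on day 14 it was -0.92 under the first setting, neither called. Ptgs2 in dendritic-like cells, day 14 against day 3, was -1.31 without the top 5 cells. The causes were not tested. The median log2 ratio of all genes moved by over 0.1 in 2 settings, median-of-ratios scaling and averaged single-cell CPM, most in smooth muscle-like cells of day 3 against day 0 under the latter (0.40 against 0.07).

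No paired analysis was possible because each day had 1 library and the labels give no replicate numbers. The alternatives without doubted cells, with shared barcodes kept and without the top 5 cells were chosen after seeing the data. Day 0 held too few smooth muscle-like, endothelial-like and immune-like cells to measure most members there, and 20 UMIs was the least depth at which a difference was called.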
